A study of Homo sapiens with 12 samples.

Results

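The set consists of 10 genes of the neuronal cytoskeleton, measured after knockdown of SUPT4H1 in HEK293, a long-established cell line from human embryonic kidney. They are NEFL, NEFM, NEFH, INA, NES, VIM, TUBB3, STMN1, MAP2 and MAP1B, found by their symbols as 10 of the 57704 genes of the count table. One group of cells received pooled siRNAs against SUPT4H1 (the gene for the smaller partner in the elongation factor DSIF) and the other received scrambled siRNAs, both at 100 nM for 72 hours. All cells of both groups were HEK293 and stably carried a reporter built from an endogenous intronic sequence and DARP-EGFP, and no cells without the reporter were among these libraries. Each group held 6 libraries of polyadenylated RNA 3′ ends from 6 transfections of 1 starting culture, and every p-value rests on how far these transfections varied. ERCC RNA standards went into each lysate of 1000000 cells, mix 2 in the SUPT4H1 siRNA group and mix 1 in the scrambled group.

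Intermediate filaments of the neurofilament kind are heteropolymers. NEFL is the light chain on which they are built, NEFM and NEFH add the long side arms, INA (α-internexin) joins them in central neurons, NES (nestin) marks neural progenitors and VIM (vimentin) is the filament protein of mesenchymal and many cultured cells. Microtubules are built from α- and β-tubulin, of which TUBB3 is the isotype associated with neurons. STMN1 (stathmin) binds free tubulin and promotes microtubule disassembly, while MAP2 stabilises microtubules in dendrites and MAP1B does so in growing axons. The set is named for neurons, and the cells measured were a kidney line.

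Endogenous counts summed to 6591194 to 11366971 per library with SUPT4H1 siRNA and to 7337033 to 20269171 with scrambled siRNA. SUPT4H1 itself lay between 17.9 and 22.8 CPM in cells with its siRNAs, against 175 to 199 CPM with scrambled siRNA (CPM are tags per 1000000 of the TMM-scaled library), a log2 fold change of −3.14. SUPT4H1 siRNA replicate 6 stood apart on the second principal component, at −35.0, against 3.93 to 18.2 in the other libraries of its group. RNA integrity numbers lay between 9.6 and 10 with SUPT4H1 siRNA and between 9.9 and 10 with scrambled siRNA. Of 10 kidney lineage markers, 7 were expressed well enough to be tested, and 9 of 17 neuronal markers outside the cytoskeleton, SNAP25, RBFOX3, ELAVL3, ELAVL4 and SYN1 among them, averaged under 1 CPM. The summed neuronal markers nevertheless reached 332 to 396 CPM with SUPT4H1 siRNA and 467 to 600 CPM with scrambled siRNA, most of it from UCHL1, a ubiquitin hydrolase gene. These sums moved in the same direction as NEFL, and their part in its change was not tested.

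The promoters of STMN1 and VIM are shown because STMN1 had the largest fall of the set and VIM was its single called rise. Both are the 250 bases before a RefSeq transcript start (GRCh38.p14), 5′ to 3′. Of the starts in the GENCODE basic annotation, 2 of 5 lay within 50 bases of the STMN1 window's start site. For VIM 0 of 1 did, although the annotated gene begins at 17228259, just after the window, so which start was in use is not known from these data. Capitals mark matches on either strand to 7 motifs searched by their letters: the SP1 core GGGCGG, the E2F letters TTTGGCGC, the E-box CACGTG, the CCAAT box, the TATA letters TATAAA, the AP-1 letters TGACTCA, and, for the left end of the RE1 element bound by REST, the letters CAGCACC.
STMN1 (chr1:25906420-25906669, minus strand): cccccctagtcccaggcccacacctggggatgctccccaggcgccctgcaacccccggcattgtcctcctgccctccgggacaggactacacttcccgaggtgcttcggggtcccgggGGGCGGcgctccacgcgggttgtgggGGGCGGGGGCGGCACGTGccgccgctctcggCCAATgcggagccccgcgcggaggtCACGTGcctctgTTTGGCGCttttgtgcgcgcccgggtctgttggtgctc
VIM (chr10:17227991-17228240, plus strand): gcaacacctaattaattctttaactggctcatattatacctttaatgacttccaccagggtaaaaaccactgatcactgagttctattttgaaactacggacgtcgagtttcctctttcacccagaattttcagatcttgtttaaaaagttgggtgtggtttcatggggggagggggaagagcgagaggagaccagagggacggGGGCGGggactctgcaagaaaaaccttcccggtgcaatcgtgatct
The STMN1 window held the E2F letters 38 bases before the start, 2 E-boxes at 94 and 50, a CCAAT at 75 and 3 SP1 cores at 132, 106 and 100, of which the last abuts the first E-box. The E2F letters occur in 0.553% of 27305 promoter windows of the same length, the E-box in 6.49%, CCAAT in 33.0% and the SP1 core in 42.3%. The VIM window held 1 SP1 core, 46 bases before the start, and none of the other letters. GC content was 73.2% in the STMN1 window and 46.0% in the VIM window, against a median of 58.0% over all windows. In the windows of other members, INA held 4 SP1 cores, NES 2 SP1 cores and the RE1 letters, and TUBB3 3 SP1 cores and a CCAAT. The MAP1B window held 3 SP1 cores and the TATA letters (GC content 70.0%), and the MAP2 window held none of the 7 motifs (44.4%). As for VIM, no basic transcript start lay within 50 bases of the start sites of these windows. The MAP1B window runs from 72107225 to 72107474. Nearly all of it, the TATA letters included, lies after the annotated gene start at 72107234. The MAP2 window (209661246 to 209661495) lies inside the annotated gene as well. TATAAA occurs in 11.1% of all windows, the AP-1 letters in 4.16% and the RE1 letters in 6.07%. A match is a description of the letters only.

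The 10 genes spanned the whole range of expression. Tags are read from transcript 3′ ends, so levels are compared per 3′ end and not divided by transcript length. With scrambled siRNA, STMN1 averaged 1540 CPM and NEFL 1435 CPM, and only 72 and 77 of the 13811 tested genes lay above them. VIM followed at 261 CPM, MAP1B at 142 CPM and MAP2 at 25.3 CPM. INA at 3.77 CPM, NES at 3.30 CPM and NEFM at 1.55 CPM were low, NEFH was nearly absent and TUBB3 had no tag. STMN1 and NEFL did not differ beyond their spread in these libraries, since the STMN1 values (1460 to 1633 CPM) lay inside the range of NEFL (1183 to 1718 CPM), and the ranges of INA and NES overlapped as well. With SUPT4H1 siRNA, 6 of 6 libraries had more NEFL tags (870 to 1019 CPM) than STMN1 tags (744 to 857 CPM), against 2 of 6 with scrambled siRNA (replicates 4 and 6). There INA (3.22 to 5.36 CPM) lay above NES (1.56 to 3.09 CPM) without overlap, while NES overlapped NEFM (0.731 to 1.61 CPM). The filter on low counts passed 8 members. NEFH and TUBB3 did not pass it.

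**Figure D1:**
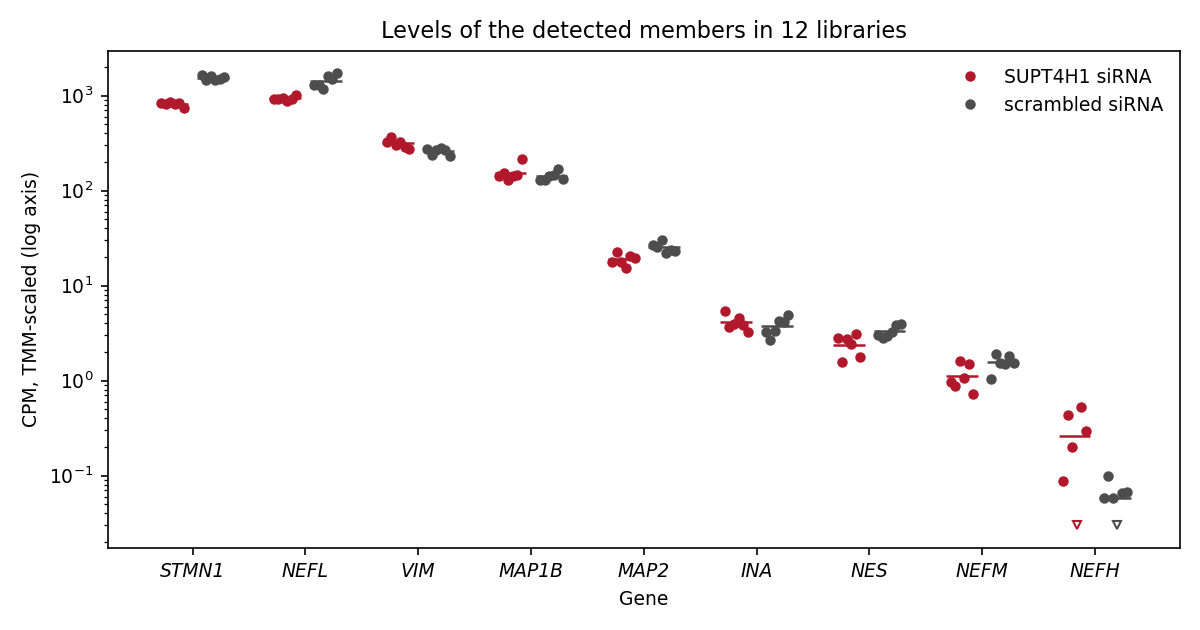
CPM (TMM-scaled, log axis) of 9 members in each of 12 libraries, SUPT4H1 siRNA in red and scrambled siRNA in grey. Points are libraries, lines are group means (n = 6 each) and open triangles at the bottom are libraries with 0 counts. STMN1 and NEFL lie lower with SUPT4H1 siRNA with no overlap, VIM lies mostly higher, and TUBB3, at 0 in all 12, is not drawn.

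In relative abundance 4 of the 8 tested members changed, and 3 of these fell. The falls were those of STMN1, NEFL and MAP2, and the rise that of VIM. Among all 13811 genes tested, 20.2% were called lower and 20% higher at an adjusted p under 0.05 (edgeR quasi-likelihood test), 40.2% in all. The members' counts, 3 lower and 1 higher of 8, stand beside these shares. The median relative log2 fold change was −0.44 over the 8 tested members and 0.00 over all tested genes, and the 2 members below the filter are outside that median.

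STMN1, the gene for the tubulin-sequestering protein stathmin, fell most in RNA tags. It lay between 744 and 857 CPM with SUPT4H1 siRNA (median 828) and between 1460 and 1633 CPM with scrambled siRNA (median 1540). All 6 SUPT4H1 libraries were below all 6 scrambled ones, with a wide gap between the groups. Relative abundance changed by a log2 of −0.91 (SE 0.07, adjusted p = 3.16e-09 in edgeR), which leaves 53.1% of the level with scrambled siRNA, and 2.75% of tested genes had a lower value. STMN1 lies on chromosome 1 from 25884181 to 25906991 on the minus strand (GRCh38).

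STMN1 also lost weight within its own family, in a share drawn from the same counts as its fall. Stathmin tags numbered 5171 to 30203 per library, and STMN1 made up 98.0% to 98.5% of them with SUPT4H1 siRNA (median 98.2%), against 99.1% to 99.5% with scrambled siRNA (median 99.3%). The groups did not overlap, and the mean share was 1.05 percentage points lower with SUPT4H1 siRNA (98.2% ± 0.199 against 99.3% ± 0.151, SD, n = 6 each, exact two-sided permutation test p = 0.0022, the smallest possible here, adjusted p = 0.0032 over 3 shares). The other stathmin that could be tested was STMN3, a membrane-bound relative found in neurons. It rose, at 11.1 to 16 CPM with SUPT4H1 siRNA and 6.97 to 13.5 CPM with scrambled siRNA (log2 0.51, SE 0.15, edgeR adjusted p = 0.011), and was −0.29 with spike-in scaling.

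NEFL, the gene for the neurofilament light chain, was the second called fall. Its values ran from 870 to 1019 CPM with SUPT4H1 siRNA (median 923) and from 1183 to 1718 CPM with scrambled siRNA (median 1403). The groups did not overlap, and the spread was wider with scrambled siRNA (SD 210 CPM) than with SUPT4H1 siRNA (SD 49.4 CPM). On the log2 scale NEFL changed by −0.62 (SE 0.09, adjusted p = 1.56e-05 in edgeR), or 65.1% of the level with scrambled siRNA. STMN1 and NEFL were the 2 of 8 tested members with no overlap between the groups, where 20.4% of all tested genes had none.

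Tags of the partner chains of NEFL were almost absent. NEFM, whose gene lies 31856 bases from NEFL on chromosome 8 (24913012 to 24919098, with NEFL from 24950955 to 24957110), had 64 tags in the 6 SUPT4H1 libraries and 145 in the 6 scrambled ones. NEFL had 52638 and 129903 tags in the same libraries, or 822 per NEFM tag with SUPT4H1 siRNA and 896 with scrambled siRNA. NEFM lay between 0.731 and 1.61 CPM with SUPT4H1 siRNA (median 1.02) and between 1.03 and 1.91 CPM with scrambled siRNA (median 1.53). The log2 value of −0.46 (SE 0.27, adjusted p = 0.18 in edgeR) was not called, and the groups overlapped. The value rests on 5 to 39 tags per library. An antisense gene, AF106564.1, overlaps NEFM and holds 138 tags against 209 for NEFM, and without a stated strand setting the values of both are uncertain.

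NEFH, the heavy chain, had 15 tags in all with SUPT4H1 siRNA, at most 5 in a library, and 6 in all with scrambled siRNA, at most 2 in a library. In CPM, 4 of the SUPT4H1 libraries lay above every scrambled one, and 1 had no tag. Of these 4, replicates 3 and 6 had 2 tags each, as many as scrambled siRNA replicate 2, a deeper library. Without the filter on low counts the log2 value was 1.90 (SE 0.91, adjusted p = 0.14 in edgeR), which was not called. INA, the α-internexin gene on chromosome 10 (103277163 to 103290351), lay between 3.22 and 5.36 CPM with SUPT4H1 siRNA (median 3.89) and between 2.70 and 4.93 CPM with scrambled siRNA (median 3.75). These ranges nearly coincide, and the log2 fold change of 0.14 (SE 0.19) was not called (edgeR adjusted p = 0.58).

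NES, on chromosome 1 (156668763 to 156677397), lay between 1.56 and 3.09 CPM with SUPT4H1 siRNA (median 2.57) and between 2.80 and 3.93 CPM with scrambled siRNA (median 3.12). All 6 SUPT4H1 libraries were below the scrambled median and 4 below the lowest scrambled library. The log2 fold change of −0.45 (SE 0.21) did not pass the threshold (edgeR adjusted p = 0.088).

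VIM, on chromosome 10 (17228259 to 17237593), was the one called rise. It lay between 272 and 368 CPM with SUPT4H1 siRNA (median 315) and between 231 and 279 CPM with scrambled siRNA (median 268). Above the highest scrambled library lay 5 of the 6 SUPT4H1 libraries, all but replicate 6. VIM changed by a log2 of 0.27 (SE 0.08, adjusted p = 0.011 in edgeR), a level 1.21 times that with scrambled siRNA, and it was −0.56 with spike-in scaling. The antisense gene VIM-AS1, which overlaps its first part, had 161 tags against 41883 for VIM.

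With VIM higher and NEFL lower, the mixture of filament tags shifted. VIM made up 20.9% to 28.4% of the tags of the 6 filament genes with SUPT4H1 siRNA (median 25%), against 11.8% to 18.2% with scrambled siRNA (median 15.3%). The groups did not overlap. The mean share was 25% ± 2.64 with SUPT4H1 siRNA and 15.5% ± 2.31 with scrambled siRNA (SD, n = 6 each), a difference of 9.52 percentage points (exact two-sided permutation test p = 0.0022, the smallest possible here, adjusted p = 0.0032 over 3 shares). This share does not depend on how libraries are scaled, but it comes from the same counts as the VIM and NEFL calls. NEFL held 74.1% of the summed filament tags with SUPT4H1 siRNA and 84.0% with scrambled siRNA. INA, NES, NEFM and NEFH each held under 0.5% in both groups.

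**Figure D2:**
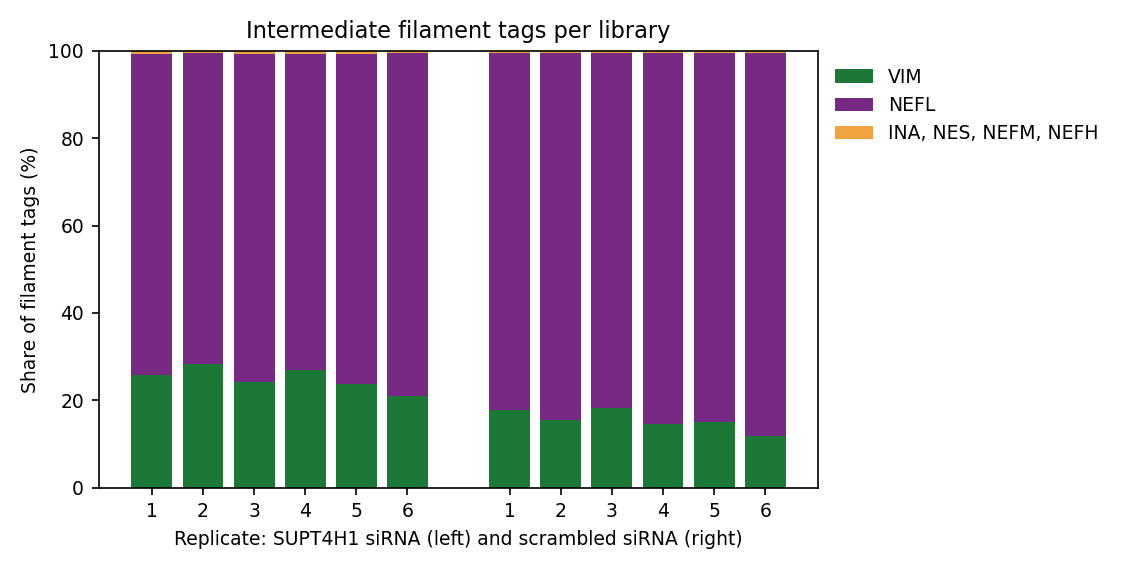
Share (%) of VIM, NEFL and the 4 low filament genes among the tags of the 6 filament genes, one bar per library, SUPT4H1 siRNA on the left and scrambled siRNA on the right. VIM takes 20.9% to 28.4% in SUPT4H1 libraries and 11.8% to 18.2% in scrambled ones.

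The microtubule-associated members went different ways. MAP2, on chromosome 2 (209424058 to 209734118), lay between 15.2 and 22.6 CPM with SUPT4H1 siRNA (median 18.7) and between 22.0 and 30.4 CPM with scrambled siRNA (median 24.6). Below every scrambled library lay 5 of the 6 SUPT4H1 libraries. MAP2 changed by a log2 of −0.42 (SE 0.11, adjusted p = 0.0044 in edgeR), or 74.8% of the level with scrambled siRNA. MAP1B, on chromosome 5 (72107234 to 72209570), lay between 129 and 213 CPM with SUPT4H1 siRNA (median 144) and between 130 and 170 CPM with scrambled siRNA (median 139). The highest value was that of SUPT4H1 siRNA replicate 6, and the next in its group was 153 CPM. The log2 value was 0.12 (SE 0.10, adjusted p = 0.38 in edgeR), which was not called, and 0.01 without that replicate.

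TUBB3, on chromosome 16 (89921392 to 89938761), had 0 tags in all 12 libraries. A count of 0 allows up to 3 tags, or 0.147 to 0.439 CPM depending on the library and 0.00595% to 0.0185% of β-tubulin tags, for counting error only. The last exon of TUBB3 (89934729 to 89936097) shares 1364 of 1369 bases with the last exon of ENSG00000198211, an annotated gene on the same strand, which was at 0 in all libraries as well. The counting rule for reads that fall in both genes is not given in the sources used here. Absence of the transcript and reads left unassigned cannot be told apart, so the 0 is given only as listed.

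Per spike-in, all 8 tested members had negative values. Here the scale came from the 23 ERCC standards present in equal amounts in both mixes, which moved the median log2 fold change of all tested genes to −0.82, and 59.0% of genes were called lower and 0.311% higher. Of the 8 members, 6 were called lower and 0 higher (edgeR quasi-likelihood test, adjusted p under 0.05). STMN1 was at −1.72 (SE 0.32, adjusted p = 4.43e-06), or 30.5% of the level with scrambled siRNA, and NEFL at −1.46 (SE 0.31, adjusted p = 9.10e-05), or 36.4%. NEFM (−1.29), NES (−1.27), MAP2 (−1.18) and MAP1B (−0.70, adjusted p = 0.046) were called too, and INA (−0.73, adjusted p = 0.072) and VIM (−0.56, adjusted p = 0.10) were not. Relative to the shift of all genes, STMN1 lay 0.90 below the median, NEFL 0.64 below it, and VIM 0.25 above it. STMN1 was the single member without overlap on this scale (8.59% of all tested genes had none). Each group had its own mix, and unequal dosing of the mixes cannot be told apart from a change per cell, just as fewer cells cannot be told apart from less RNA per cell. With the ERCC standards of subgroup C in place of B, STMN1 and NEFL were the 2 members still called, at smaller values (−1.40 and −1.13). The MAP1B call was held in 2 of 12 fits that each left out 1 library, without SUPT4H1 siRNA replicate 5 and without scrambled siRNA replicate 3, and was lost in the other 10. Without SUPT4H1 siRNA replicate 5, VIM (−0.81, adjusted p = 0.00066) and INA (−0.94, adjusted p = 0.0029) were called lower as well in edgeR.

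**Figure D3:**
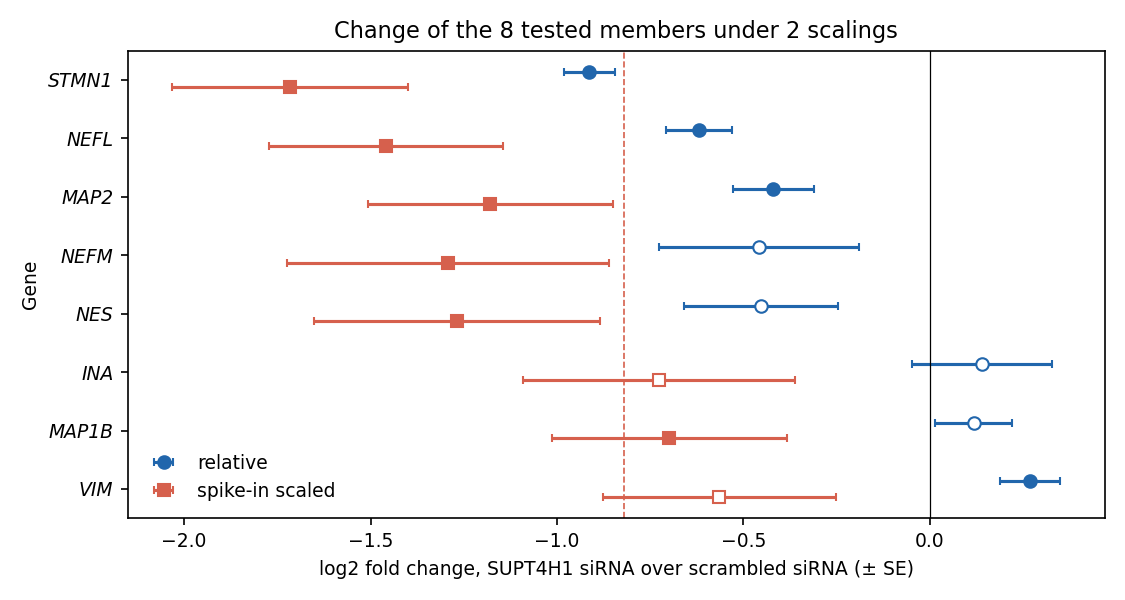
Log2 fold change (± SE) of the 8 tested members, SUPT4H1 siRNA over scrambled siRNA, in relative abundance (blue circles) and with spike-in scaling (red squares). Filled symbols have an edgeR adjusted p under 0.05. The solid line is 0 and the dashed line is the spike-in-scaled median of all tested genes (−0.82). STMN1 and NEFL lie farthest to the left on both scales.

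Other genes of the same structures give the setting, with changes in relative abundance and spike-in-scaled values beside them. Among 17 tubulin genes 14 were tested, of which 4 rose, 1 fell and 9 were not called (median 0.13, −0.68 with spike-in scaling). The β-tubulin gene TUBB lay between 1700 and 2120 CPM with SUPT4H1 siRNA and between 1335 and 1699 CPM with scrambled siRNA (log2 0.30, spike-in-scaled −0.51). TUBB2B, an isotype of the developing brain, rose by 0.51 and TUBB6 by 0.33 (spike-in-scaled −0.29 and −0.45), and TUBE1 (ε-tubulin, a centriole component) fell by 0.71 (spike-in-scaled −1.58). The STMN1 and TUBB values therefore had opposite signs in relative abundance. Tubulin genes have near-identical copies and pseudogenes, which makes their values uncertain. Of the 34 other microtubule-associated genes 29 were tested, of which 4 rose and 3 fell (median −0.01, spike-in-scaled −0.84). DPYSL3, a collapsin response mediator of axon growth, lay between 117 and 148 CPM with SUPT4H1 siRNA and between 56.9 and 70.7 CPM with scrambled siRNA (log2 1.02, SE 0.08, edgeR adjusted p = 4.02e-09, spike-in-scaled 0.23). MAP1A, the relative of MAP1B, was at 0.79 (edgeR adjusted p = 0.00018, spike-in-scaled −0.05), DPYSL2 at 0.47 (spike-in-scaled −0.37) and MAP7 at −0.39 (spike-in-scaled −1.21).

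Tubulin folding and severing genes were all tested, and of 18 genes 8 fell and 3 rose (median −0.21, spike-in-scaled −1.01). SVBP, the partner of the tubulin tyrosine carboxypeptidases, fell by 0.84, the katanin-like gene KATNAL1 by 0.70 and the tubulin cofactor gene TBCE by 0.47 (spike-in-scaled −1.74, −1.54 and −1.27). TBCC rose by 0.62 in relative abundance and was at −0.19 with spike-in scaling. Of 11 other intermediate filament genes 8 were tested, with 3 risen and 2 fallen (median 0.01, spike-in-scaled −0.80). LMNB1, a nuclear lamin, lay between 232 and 315 CPM with SUPT4H1 siRNA and between 128 and 167 CPM with scrambled siRNA (log2 0.83, spike-in-scaled 0.04). PRPH (peripherin), a filament gene of peripheral neurons, fell by 0.74 and KRT18 by 0.45 (spike-in-scaled −1.47 and −1.27), and SYNM (synemin), which assembles with vimentin, rose by 0.70 (spike-in-scaled −0.16). Of 10 genes for linkers between filaments and their turnover 4 rose and 0 fell in edgeR in relative abundance (median 0.06). With spike-in scaling 1 was called higher and 5 lower (median −0.74), where 59.0% of all tested genes were lower. DSP was at 0.41, MACF1 at 0.24 and SPTBN1 at 0.22 (spike-in-scaled −0.40, −0.58 and −0.58), and ANK2, an ankyrin, was the largest at 1.58, with 7.77 to 12.4 CPM with SUPT4H1 siRNA and 2.33 to 4.67 CPM with scrambled siRNA. ANK2 was also called with spike-in scaling (0.82, edgeR adjusted p = 0.036).

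Among 17 genes for kinases that act on these proteins 6 rose and 2 fell (median −0.07, spike-in-scaled −0.90). AURKB, a mitotic kinase that phosphorylates stathmin, lay between 185 and 222 CPM with SUPT4H1 siRNA and between 324 and 422 CPM with scrambled siRNA (log2 −0.85, SE 0.08, edgeR adjusted p = 8.27e-08, spike-in-scaled −1.63). CAMK2G fell by 0.68 (spike-in-scaled −1.51), while GSK3B rose by 0.52 and MARK2 by 0.42 in relative abundance (spike-in-scaled −0.34 and −0.38). REST, the repressor of neuronal genes, and its corepressors numbered 14, and those that rose were RCOR1 at 0.46 and HDAC1 at 0.19 (spike-in-scaled −0.36 and −0.61). Neural progenitor markers numbered 7 tested of 12, with 3 risen and 1 fallen in relative abundance (median 0.09). In edgeR with spike-in scaling 0 were higher and 4 lower (median −0.75), where 59.0% of all tested genes were lower. They included SOX3 at 0.58, POU3F2 at 0.55, CDH2 at 0.25 and MSI1 at −0.34 (spike-in-scaled −0.23, −0.30, −0.55 and −1.09), and SOX1, HES5 and FABP7 had no tag. Of 8 tested neuronal markers outside the cytoskeleton 4 fell and 1 rose (median −0.52, spike-in-scaled −1.32). ENO2, a neuronal enolase, fell by 0.90, GAD1 by 0.69 and UCHL1 by 0.57 (spike-in-scaled −1.70, −1.48 and −1.40), and ELAVL2 rose by 0.33 (spike-in-scaled −0.48). Of 3 tested epithelial markers 2 fell (median −1.22, spike-in-scaled −2.06). EPCAM, an epithelial adhesion protein, lay between 3.36 and 5.85 CPM with SUPT4H1 siRNA and between 16 and 26.5 CPM with scrambled siRNA (log2 −2.23, SE 0.16, edgeR adjusted p = 1.06e-09, spike-in-scaled −3.15). CDH1, the epithelial cadherin, was at −1.22 (edgeR adjusted p = 3.90e-07, spike-in-scaled −2.06). The summed epithelial markers were 12.6 to 19.0 CPM with SUPT4H1 siRNA and 31.1 to 46.1 CPM with scrambled siRNA, and their part in the change of VIM was not tested. Among glial markers MBP fell by 0.43 (spike-in-scaled −1.23). Of 2 tested fibroblast markers COL3A1 rose by 0.85 (spike-in-scaled −0.02), at low levels of 0.779 to 3.64 CPM over both groups. COL1A1, the other one, was at −0.46 and not called (edgeR adjusted p = 0.083, spike-in-scaled −1.33). Of the 8 fibroblast markers 6 averaged under 1 CPM. Of 7 tested kidney lineage markers 0 passed the threshold in relative abundance in edgeR.

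**Figure D4:**
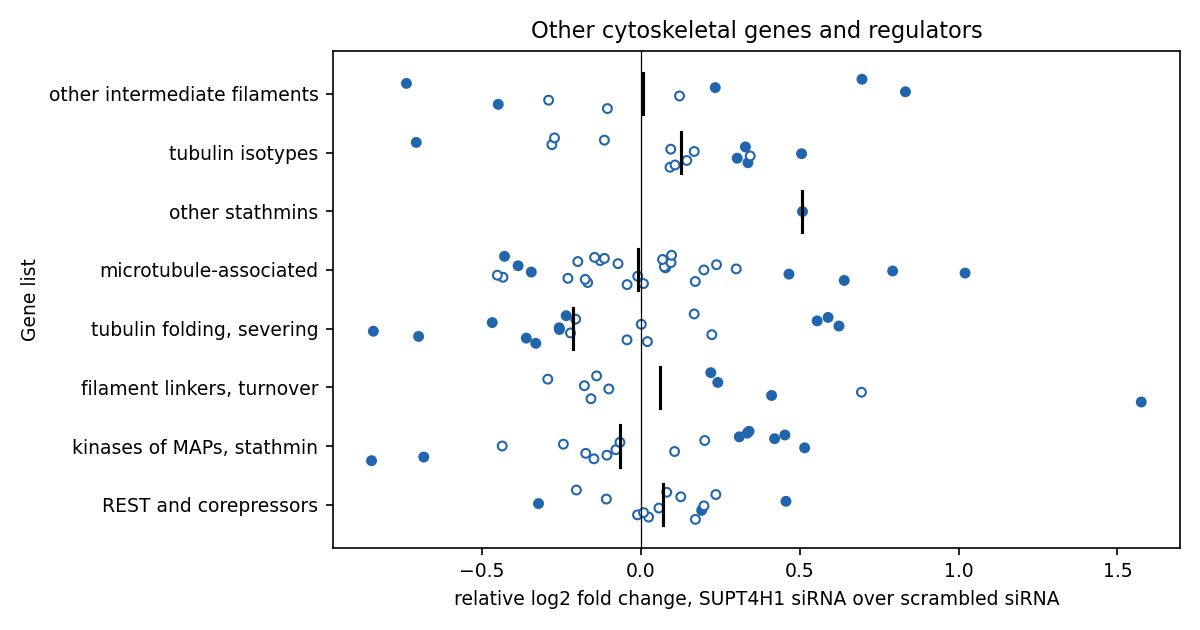
Relative log2 fold change, SUPT4H1 siRNA over scrambled siRNA, of each tested gene in 8 lists of cytoskeletal genes and their regulators. Filled points have an edgeR adjusted p under 0.05 and black bars are list medians, which lie between −0.21 (tubulin folding, severing) and 0.13 (tubulin isotypes) except for STMN3, the single tested other stathmin.

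Between libraries of the same group the members did not move together. After subtraction of group means, Pearson correlations over the 12 libraries among NEFL, VIM, STMN1, MAP2 and MAP1B ran from −0.73 (STMN1 and MAP1B) to 0.31 (NEFL and MAP1B). These points share library depth and scaling, and SUPT4H1 siRNA replicate 6 was at the end of its group for STMN1, NEFL, VIM and MAP1B. Of 6644 other genes that averaged at least 20 CPM, those most like each member were DHRS13 (0.93) and CHAF1A (0.93) for NEFL, TMEM248 (0.93) and NUDT9 (0.89) for VIM, and RPS16 (0.96) and TMSB10 (0.96) for STMN1. For MAP2 they were ARPIN (0.94) and ITGB5 (0.93), and for MAP1B DYRK1A (0.94) and MAP7D3 (0.93). Each is among the highest of 6644 correlations over 12 libraries, so its height comes in part from the picking. Shared regulation was not tested.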

How the data were processed

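Values were raw counts of tags per gene, whole numbers in 1 table that the authors deposited, for 12 QuantSeq 3′ libraries (200 ng RNA each), with 57704 genes, 92 ERCC standards and a GFP row. The submitters' processing notes name the build GRCh38.p10 and, among tools, STAR, MultiQC, FastQC 0.11.5 and R 3.4.3. For the counting tool, its annotation and its strand setting, the sources used here give nothing. Groups follow the sample titles.

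Counts of all endogenous genes passing filterByExpr (13811) were tested with edgeR 4.0.16 (robust quasi-likelihood test, no covariates) in R 4.3.3, with Benjamini-Hochberg adjustment over all tested genes and a threshold of 0.05. Relative values used TMM factors. Spike-in-scaled values were set by ERCC subgroup B, its counts summed, an assignment written from general knowledge of the product. Scaled by it, the median log2 differences were −2.03 (A), 0.59 (C) and 0.99 (D), close to nominal, over 5 to 7 standards each. Single standards of C ran from 0.19 to 0.92. The value of B itself, −0.01, largely follows from the scaling and is no check. Standard errors are the fold change over the root of its F statistic. For shares within a family, the test was an exact permutation over 924 splits, two-sided. Within-group correlations used log2(CPM + 1). Alternatives were DESeq2 1.42.0, limma-voom (limma 3.58.1), other scalings, filters, covariates and leaving out each library. The fit was first tested on simulated data, where it recovered 50.8% of planted 1.5-fold, 92.5% of 2-fold and 100% of 4-fold changes. A member that was not called may therefore still have changed by 1.5-fold, and some 2-fold changes were missed as well. These shares cover genes of all levels and were not given apart for genes with few tags.

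The text names all 10 members, up to 4 called genes per list by adjusted p, and the 2 genes most like each member; REST, SNAP25 and other markers below the threshold were named for context. A result from each of the REST and glial lists is not reported here. Members and lists were chosen with earlier results of these data known. All 30 pairs of libraries within groups differed by more than sampling noise. Positions are from GENCODE release 29 (GRCh38), by gene identifier. A promoter window was found for 7 members outside chromosome 8; with several windows, the one with most GENCODE basic transcript starts within 50 bases was taken, or the first listed where none had any (MAP1B, MAP2).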

Additional observations from a re-analysis of the deposited data

Results flagged for a closer look

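Dixon's test at its 95% critical value singled out 1 library in 7 of 40 sets of 6 values, where chance gives about 2 (1 in 20). MAP1B in SUPT4H1 siRNA replicate 6 was at 213 CPM, against 129 to 153 CPM in the other 5 libraries of its group. The other 6 are spike-in-scaled levels, which share 1 scaling factor per library and are therefore not separate events. In SUPT4H1 siRNA replicate 5 the scaled levels of NEFL (1272, next 687), STMN1 (1164, next 602), INA (5.33, next 2.88), NES (4.29, next 1.52) and NEFM (2.07, next 0.685) were each the highest of the group. That library had a log2 ratio of endogenous counts to subgroup B counts of 9.27, against 7.62 to 8.38 in the other SUPT4H1 libraries and 8.78 to 9.74 in the scrambled ones. In scrambled siRNA replicate 4, which had the ratio of 9.74, the scaled level of VIM was 529, next 345. The part of these 2 ratios in the scaled results was not tested beyond leaving out each library.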

How the results depend on the processing

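In relative abundance, STMN1, NEFL and MAP2 stayed lower and VIM stayed higher, each past the threshold, and the other 4 tested members stayed uncalled, under all 21 alternatives (20 for INA, NES and NEFM); the log2 fold change ran from −0.93 to −0.87 for STMN1, −0.66 to −0.55 for NEFL, −0.47 to −0.35 for MAP2 and 0.23 to 0.31 for VIM. A mean of at least 5 CPM leaves INA, NES and NEFM untested. With the replicate number as a block, the same 3 members were lower and 1 was higher, with 2411 genes higher and 2426 lower. The numbers are shared only as numbers: deviations of same-numbered libraries correlated between −0.34 and 0.08, and 0 of 12 libraries correlated best with its own number. In the exact paired test both tag shares had p = 0.031, the smallest that 6 pairs allow. The TUBB3 share, 0 in every library, gave no value to vary.

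Spike-in-scaled calls moved more. With subgroup C, 2 members were lower, with 69 genes higher and 2226 lower, and MAP2 (adjusted p = 0.053), NEFM, NES and MAP1B were no longer called. Leaving out each library gave 5 to 8 members lower, 28 to 62 genes higher and 5650 to 12320 genes lower (edgeR). The highest numbers lower came without SUPT4H1 siRNA replicate 5, where VIM (−0.81) and INA (−0.94) were called as well, and the fewest genes lower without scrambled siRNA replicate 4. MAP1B was called in 2 of these 12 fits, while STMN1, NEFL, MAP2, NES and NEFM were called in all 12. NEFM, NES and INA rest on 5 to 74 tags per library.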
